A study of Mus musculus with 3 samples.

Results

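B cells were picked out of single-cell libraries of mouse bladder urothelium by their own transcripts. A cell barcode was taken as a B cell when it had at least 500 detected genes, at most 20% of its unique molecular identifiers (UMIs, the counted transcript molecules) from mitochondrially encoded genes, and at least 3 UMIs of Cd79a, Cd79b and Ms4a1 together. These had to make up at least 0.1% of its UMIs, with 0 UMIs of the T cell receptor genes Cd3d, Cd3e and Cd3g. This gave 312 B cells among 16821 filtered cells of 25784 barcodes: 28 in the Lpar6 knockout, 107 in the Cab39l knockout and 177 in the wild type library. Since the measured values of Cd79a, Cd79b and Ms4a1 chose the cells, their levels below are a description of the choice.

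The libraries came from Lpar6 knockout, Cab39l knockout and wild type mice, 1 library per genotype, and each held the pooled bladder cells of 15 mice. LPAR6 is a G protein-coupled receptor that senses the lipid lysophosphatidic acid, and CAB39L is a close relative of CAB39, a scaffold of the LKB1 kinase complex. The series title ties both genes to the differentiation of the urothelium and to bladder cancer. The labels used here give no strain, sex, age or allele, all groups went through the same trypsin digestion and density gradient, and whether a knockout acted in urothelium alone is not stated. With 1 pooled library per genotype there is no replicate spread, no test was run, and genotype and library cannot be told apart. Every interval below is an exact 95% interval for counting error only.

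As background, a B cell carries an antigen receptor made of immunoglobulin heavy and light chains, held in the membrane with CD79A and CD79B, which pass the signal on. Each mature B cell normally uses 1 kind of light chain, kappa or lambda, and starts with IgM and IgD before it may switch to IgG, IgA or IgE. B cells also take up antigen and show it to T cells on MHC class II molecules, and a part of them become plasma cells that secrete antibody. In the bladder wall B cells are few in health and gather in lymphoid aggregates in chronic inflammation.

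The light chain results rest on reads from the 3' ends of very similar genes, so the last 120 coding bases before the stop codon are shown for the constant regions of the 3 lambda genes and of kappa (GENCODE vM21, GRCm38, which is mm10). Iglc1 is at chr16:19061755-19061874 on the minus strand, Iglc2 at chr16:19198539-19198658 on the minus strand, Iglc3 at chr16:19065368-19065487 on the minus strand and Igkc at chr6:70726635-70726754 on the plus strand, all within the constant exon. Capitals mark the 39 positions at which the 3 lambda genes are not all alike.
Iglc1: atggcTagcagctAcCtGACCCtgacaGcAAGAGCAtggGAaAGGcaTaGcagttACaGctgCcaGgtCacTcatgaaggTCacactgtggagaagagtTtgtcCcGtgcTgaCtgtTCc
Iglc2: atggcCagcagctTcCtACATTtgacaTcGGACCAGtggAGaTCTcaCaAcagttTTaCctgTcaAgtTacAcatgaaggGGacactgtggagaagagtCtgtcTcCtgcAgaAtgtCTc
Iglc3: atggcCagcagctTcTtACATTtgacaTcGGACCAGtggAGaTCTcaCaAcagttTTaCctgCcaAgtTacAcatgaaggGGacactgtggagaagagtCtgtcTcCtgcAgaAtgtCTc
Igkc: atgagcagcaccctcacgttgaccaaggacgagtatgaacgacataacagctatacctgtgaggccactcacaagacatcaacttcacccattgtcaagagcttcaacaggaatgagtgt
Iglc2 and Iglc3 shared 118 of these 120 bases (98.3%), and each of them shared 82 of 120 (68.3%) with Iglc1. Igkc matched the lambda genes at 23.3% to 25% of positions. The longest run that Iglc2 and Iglc3 share in their untranslated 3' ends is 39 bases, against 8 bases for Iglc1 with either. How the counting split reads between Iglc2 and Iglc3 is therefore uncertain, while Iglc1 and Igkc stand apart.

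The chosen cells carried B cell transcripts well beyond the 3 genes of the rule. All 11 B cell markers were detected in each library, though Cd79a, Cd79b and Ms4a1 among them follow from the rule. Of the same 11, 8 also had a UMI in the summed urothelial cells of each library, so levels say more than detection. The invariant chain Cd74, which guides MHC class II molecules to peptides, had 7639, 9252 and 9870 CPM (UMIs scaled to the same total of 1000000 in every library) in Lpar6 knockout, Cab39l knockout and wild type B cells. The IgM heavy chain Ighm had 4977, 2932 and 4019 CPM in the same order of libraries, but 227 of its 516 UMIs in the Lpar6 knockout and 496 of 2468 in the wild type lay in 1 cell each. Without those 2 cells, described below as rich in Jchain, and the Sbp-rich cell of the Cab39l knockout, Ighm had 2887, 2978 and 3243 CPM, so the Lpar6 knockout was no longer the highest. The lineage factors Ebf1 and Pax5 had 579, 676 and 769 CPM and 116, 105 and 199 CPM. Of the genes in the rule, Cd79a had 2614, 2434 and 2363 CPM, Cd79b 1553, 1802 and 1775 CPM, and Ms4a1 (CD20) 1206, 1032 and 1137 CPM.

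T cells from the same libraries were the nearest other cells to set them against; they had at least 3 UMIs of Cd3d, Cd3e and Cd3g and none of the B cell rule genes. Ranked by the lowest log2 over the 3 libraries, the 15 genes highest in B over T cells included Cd79a, Cd79b and Ms4a1, whose place was fixed by the choice of T cells without them. The others were H2-Aa, Iglc2, Napsa, Ebf1, Iglc1, Fcmr, Igkc, H2-Ab1, Siglecg, Syk, Cd74 and H2-DMb2. These hold light chains of the antigen receptor, its kinase Syk, the inhibitory lectin Siglecg, the IgM receptor Fcmr, MHC class II genes and the aspartic protease Napsa. The ranks are a description: the 3 T cells of the Lpar6 knockout library had 0 UMIs of these genes, which allows up to 429.6 CPM, more than the B cell level of Fcmr, Siglecg, Syk and H2-DMb2 there. The wild type library, with 126 T cells, gives firmer values. In wild type cells H2-Aa was at least 315-fold higher than in T cells and Napsa at least 85.3-fold, both against the limit that 0 UMIs allow in T cells (3 UMIs). Cd74 was 464-fold and Igkc 599-fold higher there. Markers of other cell types were low but not absent. Of 11 T cell markers 1, 4 and 4 had a UMI in Lpar6 knockout, Cab39l knockout and wild type B cells, nearly all of it Cd2, which B cells of the mouse also express (473, 436 and 366 CPM), while Trac, Trbc2, Cd4 and Cd8a were at 0. Cd3d, Cd3e and Cd3g are also among the 11, and the B cell rule fixed them at 0. Of 7 natural killer cell markers 0, 4 and 4 had a UMI, with a summed level of 0, 37.8 and 13.0 CPM and Ncr1 at 0. Of 5 endothelial markers 1 was seen in each library, Pecam1, at 38.6, 73.4 and 60.3 CPM, with Cdh5 at 0. Of 5 plasmacytoid dendritic cell markers 2, 3 and 2 were seen, nearly all Bst2, with a summed level of 106, 97.9 and 52.1 CPM and Siglech at 0. Of 6 fibroblast markers 0, 1 and 1 were seen, with 0, 10 and 1 UMIs. Macrophage, neutrophil and erythroid markers are given at the end.

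B cells made up a smaller share of the filtered cells in both knockout libraries. They were 28 of 5838 cells in the Lpar6 knockout library (0.480%, interval 0.319 to 0.692%), 107 of 6657 in the Cab39l knockout library (1.61%, 1.32 to 1.94%) and 177 of 4326 in the wild type library (4.09%, 3.52 to 4.73%). The 3 intervals do not overlap. The denominators are mostly urothelial cells, 5201 and 5442 in the knockout libraries and 2578 in the wild type library. T cells were fewer still in the knockouts, with 3, 9 and 126 cells. B cells were therefore 90.3% (74.2 to 98.0%) of B and T cells in the Lpar6 knockout library, 92.2% (85.8 to 96.4%) in the Cab39l knockout library and 58.4% (52.6 to 64.0%) in the wild type library. That is 9.33, 11.9 and 1.40 B cells per T cell, a share that does not depend on how many urothelial cells were recovered.

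**Figure D1:**
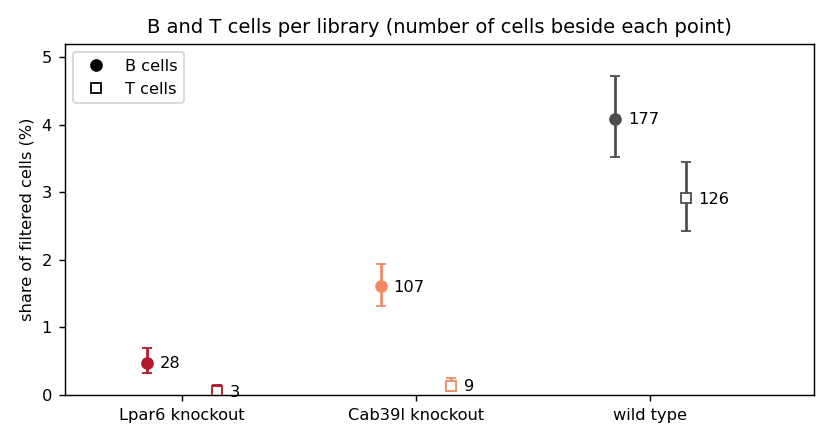
Share of filtered cells (%) that were B cells (circles) and T cells (squares) in each library, with exact 95% binomial intervals for counting error and the number of cells beside each point. B cells stand at 0.480, 1.61 and 4.09% and T cells at 0.0514, 0.135 and 2.91% in the Lpar6 knockout, Cab39l knockout and wild type libraries.

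Cells close to the limits of the rule were few. Exactly 3 rule UMIs were held by 2, 2 and 5 of the Lpar6 knockout, Cab39l knockout and wild type B cells, and the median cell held 13.5, 18 and 15. Just outside were 1, 2 and 2 cells with 2 rule UMIs, and 3, 11 and 14 cells whose rule UMIs were under 0.1% of the total, the highest of them at 0.0707, 0.0899 and 0.0863%. The lowest shares inside were 0.140, 0.139 and 0.101%. A UMI of Cd3d, Cd3e or Cd3g removed 0, 8 and 4 further cells.

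B cells were shallow beside the urothelium. They held a median of 2502, 3043 and 2521 UMIs in the Lpar6 knockout, Cab39l knockout and wild type libraries, close to T cells with 2406, 2581 and 2746 and far under urothelial cells with 26151, 28699 and 23196. Summed, they gave 103683, 449504 and 614068 UMIs, and the 5 deepest Lpar6 knockout B cells held 43.2% of that library's sum, against 16.7 and 14.6% in the Cab39l knockout and wild type libraries. Lpar6 knockout levels therefore lean on few cells. Over all barcodes the libraries held 139250807, 175075246 and 101977647 UMIs. Pairs of libraries shared 16 to 19 barcodes, none of them a B cell in both.

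The targeted genes were sparse in B cells. Lpar6 had 0 UMIs in Lpar6 knockout B cells, which allows up to 28.9 CPM (a limit of 3 UMIs), against 3 UMIs in the Cab39l knockout and 6 in the wild type library. Cab39l had 6 UMIs in Lpar6 knockout B cells, 12 in Cab39l knockout B cells (26.7 CPM) and 32 in wild type B cells (52.1 CPM). The labels do not give the deleted part of Cab39l, and a 3' tag may lie outside it, so those UMIs do not check the knockout. Of other receptors for lysophospholipids, P2ry10 had 9.65, 40.0 and 53.7 CPM and Gpr174 had 19.3, 20.02 and 30.9 CPM in Lpar6 knockout, Cab39l knockout and wild type B cells. Lpar4 and Lpar5 had no UMI in any. Of the LKB1 complex, the kinase Stk11 itself had 48.2, 31.2 and 42.3 CPM and Cab39, the close relative of Cab39l, 86.8, 46.7 and 79.8 CPM.

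Urothelial RNA was found in nearly every B cell. Uroplakins are the membrane plaque proteins of the urothelial surface and are not made by B cells. Upk1a, Upk1b, Upk2 and Upk3a together stood at 16.8% (14.5 to 19.3%), 17.0% (15.8 to 18.2%) and 18.4% (17.3 to 19.6%) of their urothelial level in Lpar6 knockout, Cab39l knockout and wild type B cells. T cells held a like amount, 19.6, 21.7 and 15.6%. Upk3a UMIs were seen in 28 of 28, 99 of 107 and 151 of 177 B cells, and 0, 1 and 4 B cells had no uroplakin UMI. The deepest wild type B cells, of 24055, 21617 and 21066 UMIs, held 81, 37 and 70 of the 559 wild type Upk3a UMIs. Free RNA was not told apart from RNA of a urothelial cell caught under the same barcode. The median B cell gave 0.218, 0.173 and 0.137% of its UMIs to uroplakins, against 1.04, 0.973 and 0.808% in urothelial cells. At least 0.5%, the limit used for urothelial cells, was reached by 4, 7 and 6 B cells.

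**Figure D2:**
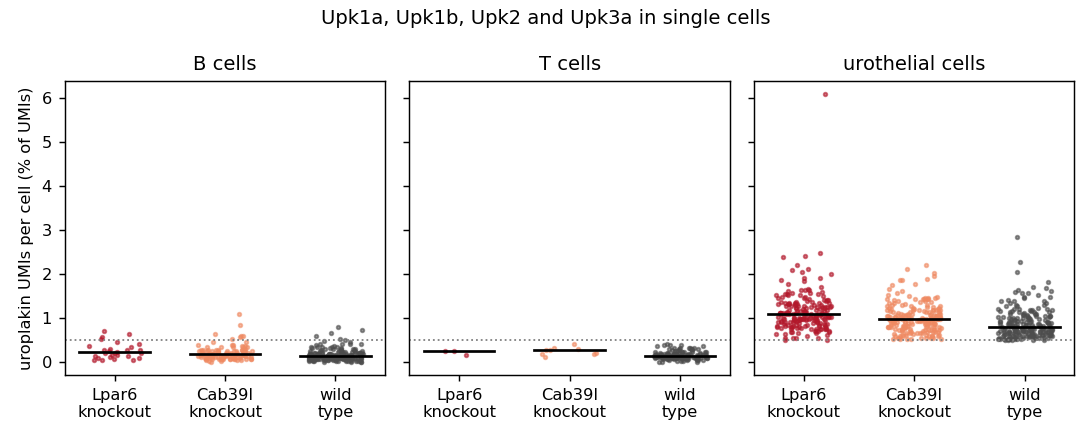
Uroplakin UMIs (Upk1a, Upk1b, Upk2, Upk3a) as a percent of all UMIs in single B cells, T cells and up to 200 urothelial cells of each library. Points are cells, bars are medians and the dotted line is 0.5%, by which urothelial cells were chosen; most B and T cells lie below it, with B cell medians of 0.218, 0.173 and 0.137%.

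The basal keratins gave a wider range. Krt5 was seen in 4, 18 and 32 B cells at 38.6, 55.6 and 73.3 CPM in the Lpar6 knockout, Cab39l knockout and wild type libraries, and Krt5 with Krt15 stood at 25, 18.6 and 33.6% of the urothelial level. Over 14 urothelial markers the B cell level was 9.1 to 34.7%, 6.75 to 31.1% and 13.9 to 35.5% of the urothelial one. The uroplakin percent was used for each gene to estimate how much of its level free urothelial RNA could give. By that estimate Ly6d, a surface protein of B cells and of urothelium, would have 1130 of its 2267 CPM in Lpar6 knockout, 989 of its 2670 CPM in Cab39l knockout and 876 of its 2409 CPM in wild type B cells from urothelial RNA, while the estimate for Cd74 and Igkc was under 1 CPM.

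Most B cells led with kappa. Among cells with at least 5 light chain constant UMIs, kappa led in 25 of 27 Lpar6 knockout, 89 of 105 Cab39l knockout and 152 of 171 wild type B cells. Lambda led in 2, 16 and 19, which is 7.41% (0.910 to 24.3%), 15.2% (8.97 to 23.6%) and 11.1% (6.82 to 16.8%). The intervals overlap, and no difference in the lambda share was detectable at these cell numbers. Igkc itself had 35695, 11415 and 12733 CPM. In the Lpar6 knockout library 1952 of its 3701 Igkc UMIs came from 1 cell, and without the Jchain-rich and Sbp-rich cells Igkc had 17469, 11635 and 9468 CPM.

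Kappa and lambda UMIs were seldom alone in a cell. Kappa-leading cells held a median of 31, 38 and 31 Igkc UMIs and 8, 8 and 6 lambda UMIs in the Lpar6 knockout, Cab39l knockout and wild type libraries, so the median lambda share was 16.0, 13.3 and 16.7%. Only 0, 5 and 6 kappa-leading cells had no lambda UMI. Asked for 80% of 1 type, 59.3, 67.6 and 57.9% of the cells were kappa, 3.70, 9.52 and 7.02% lambda and 37.0, 22.9 and 35.1% mixed. No T cell of any library reached 5 light chain UMIs, at about the same depth per cell. The mix of lambda genes in kappa-leading cells was unlike that in lambda-leading cells.

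Iglc1 gave 57.3% of the lambda UMIs in the 16 lambda-leading Cab39l knockout cells and 57.0% in the 19 of the wild type, but 21.0% and 22.6% in kappa-leading cells of those libraries. Iglc3 showed the reverse, with 5.54 and 3.89% in lambda-leading cells against 29.0 and 29.7% in kappa-leading cells. In the Lpar6 knockout library Iglc1 gave 25.7% in kappa-leading cells, and its 2 lambda-leading cells gave 18.9%. Since Iglc2 and Iglc3 end almost alike in the sequences above, their sum is safer than either: it was the larger part in kappa-leading cells of every library. The source of the lambda UMIs in kappa-leading cells was not tested. In T cells of the wild type library Iglc2 had 0 UMIs, and Iglc1 and Iglc3 had 1 each.

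**Figure D3:**
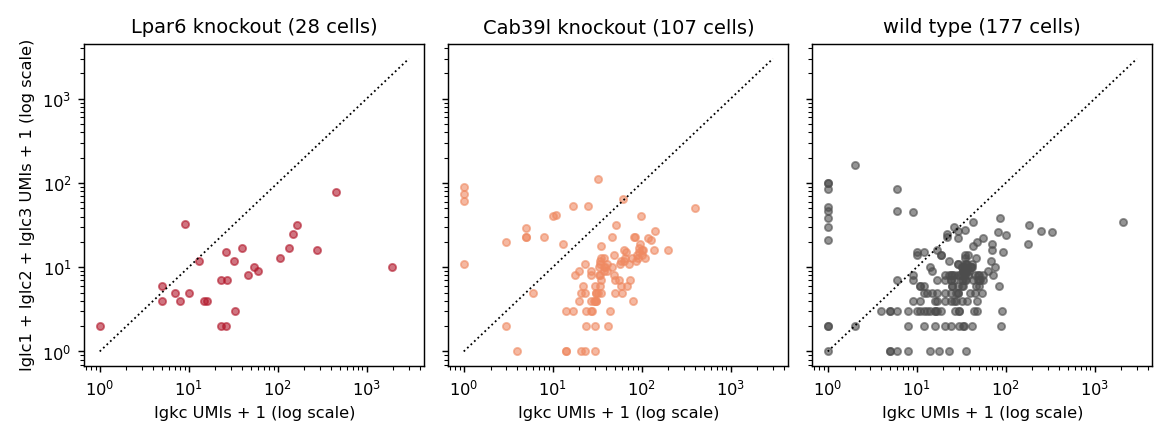
Lambda (Iglc1, Iglc2 and Iglc3) against kappa (Igkc) constant region UMIs in each B cell, both as UMIs + 1 on log axes, with a dotted line at equality. Most cells lie below the line, where kappa leads, and 2, 16 and 19 of the cells with at least 5 light chain UMIs lie above it in the Lpar6 knockout, Cab39l knockout and wild type libraries; the point far to the right in the first panel is the cell with 1952 Igkc UMIs, and that in the last has 2062.

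Variable region UMIs were too few to describe a repertoire but showed many genes in use. Igkv genes gave 15, 31 and 43 UMIs spread over 9, 18 and 27 of 160 genes in Lpar6 knockout, Cab39l knockout and wild type B cells, and Ighv genes gave 4, 16 and 28 UMIs over 2, 13 and 15 of 185 genes. The most used were Igkv3-10 (5 UMIs in 1 cell) in the Lpar6 knockout, Igkv12-46 (5 UMIs in 3 cells) in the Cab39l knockout and Igkv15-103 (8 UMIs in 2 cells) in the wild type library. Next came Igkv12-89 and Igkv14-126 in the Lpar6 knockout, Igkv14-126 and Igkv1-135 in the Cab39l knockout, and Igkv1-135 and Igkv17-127 in the wild type. The leading Ighv genes were Ighv3-6 and Ighv11-2 in the Lpar6 knockout, Ighv1-53, Ighv1-26 and Ighv1-64 in the Cab39l knockout, and Ighv7-1, Ighv5-17 and Ighv6-6 in the wild type library. No Ighv gene had more than 4 UMIs.

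Most B cells carried IgM transcripts, and few were class-switched. An Ighm UMI was present in 22 of 28 Lpar6 knockout, 104 of 107 Cab39l knockout and 173 of 177 wild type B cells, against 1 of 3, 2 of 9 and 13 of 126 T cells. Ighd, the IgD heavy chain of mature unswitched cells, was seen in 14, 48 and 101 B cells and in no T cell, at 260, 185 and 347 CPM. Class-switched cells, with at least 3 UMIs of IgG, IgA or IgE genes and more of these than of Ighm and Ighd, numbered 1 (3.57%), 2 (1.87%) and 2 (1.13%). They carried Ighg1 in the Lpar6 knockout and both Cab39l knockout cells, while 1 wild type cell held 7 Ighg2b UMIs and 1 of Ighg2c and the other held 4 of Ighg2c and 2 of Igha. Ighg3 had 0, 28.9 and 6.51 CPM, Igha 9.65, 8.90 and 17.9 CPM, and Ighe had no UMI.

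A single cell in each of 2 libraries had the transcripts of an antibody-secreting cell. In the Lpar6 knockout library 1 cell of 3562 UMIs held 165 of the 169 UMIs of Jchain, which joins IgM and IgA into polymers, together with 1952 Igkc and 227 Ighm UMIs. In the wild type library 1 cell of 6000 UMIs held all 219 Jchain UMIs, with 2062 Igkc and 496 Ighm UMIs. Both had few rule UMIs, 5 and 7, and each had 5 UMIs of Xbp1, a secretory pathway factor. Mzb1, of the same plasma cell list, had 1 UMI in the Lpar6 knockout cell and 15 in the wild type cell, and Sdc1 had 0 in both. The B cells of the Cab39l knockout library included no such cell and held 3 Jchain UMIs in all. Barcodes outside the B cell rule were not searched for such cells. Tnfrsf17, the survival receptor of plasma cells, had 0 UMIs in every library, and Sdc1, also made by urothelium, had 19.3, 86.8 and 92.8 CPM. Of 4 plasma cell genes with enough UMIs 3 were at least 1.5-fold higher and 1 lower in the Lpar6 knockout (median log2 0.85, or 0.02 without the Jchain-rich cells), and 1 was lower in the Cab39l knockout (median -0.12); the shares of all genes called in this way are given with the gene lists below.

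B cells of both knockouts were set against wild type B cells on UMIs summed over the cells of a library. Of 1800 genes with at least 50 UMIs in Lpar6 knockout and wild type B cells together, 27 (1.5%) were at least 2-fold higher and 258 (14.3%) at least 2-fold lower in the Lpar6 knockout. The ratio's own interval excluded 1 for 26 of the higher and 167 of the lower genes. Of 2601 such genes, 18 (0.692%) were at least 2-fold higher and 143 (5.50%) at least 2-fold lower in the Cab39l knockout, all with intervals that excluded 1. The wild type sum was the largest, at 614068 UMIs against 103683 and 449504, so genes reached 50 UMIs more readily through the wild type. Rescaling does not change that minimum, and its part in the excess of lower genes was not tested. Lower genes outnumbered higher ones under other scalings too, with 60 higher and 201 lower for the Lpar6 knockout under median-of-ratios factors. For the Cab39l knockout 35 were higher and 79 lower under TMM, and 27 higher and 98 lower under median-of-ratios factors. The median of all these genes was -0.15 and -0.12 on the log2 scale, and those factors moved it up by 0.03 (TMM) and 0.15 for the Lpar6 knockout and by 0.18 (TMM) and 0.12 for the Cab39l knockout. Log2 values here are ratios of CPM + 1, and they went down with transcript length (Spearman's rho -0.29 over 1799 and -0.32 over 2600 genes, which share 1 pair of libraries each); the part of length in the counts was not tested.

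Crip1, a small LIM domain protein (GRCm38 chr12:113146316-113153879, plus strand), was higher in both knockouts. It had 2546 CPM in Lpar6 knockout, 2474 in Cab39l knockout and 1124 in wild type B cells, 2.27-fold (1.96 to 2.62) and 2.20-fold (2.0 to 2.42) the wild type level. In the Lpar6 knockout 73 of the 264 Crip1 UMIs lay in 1 cell, against 63 of 1112 in the Cab39l knockout and 70 of 690 in the wild type. Free urothelial RNA could give at most 16.8 of these CPM. Thinned to 1000 UMIs per cell, 64.3, 73.6 and 39.0% of B cells had a Crip1 UMI (78.6, 87.9 and 61.0% before thinning), and 53.2% of wild type T cells did. The higher level was thus seen as more cells with the transcript, in a gene that T cells express as well.

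Other genes highest in Lpar6 knockout B cells depended more on few cells. Zcwpw1, a histone methylation reader known from meiosis, had 801 CPM in Lpar6 knockout, 309 in Cab39l knockout and 153 in wild type B cells (5.23-fold, 3.85 to 7.10, and 2.02-fold, 1.54 to 2.65), but 51 of the 83 Lpar6 knockout UMIs lay in the deepest cell. Without cells above 10000 UMIs its log2 in the Lpar6 knockout was 1.39, against 2.38 with them. Cyclin D2 (Ccnd2) had 463, 120 and 138 CPM, with 27 of 48 UMIs in that same cell. The galectin Lgals1 had 434, 336 and 186 CPM, and was at 1274 CPM in wild type T cells. Gpx4, which protects membranes from lipid peroxidation, had 521, 378 and 238 CPM, and annexin Anxa2 had 212, 151 and 81.4 CPM. In the Lpar6 knockout these were 2.34-fold, 2.19-fold and 2.61-fold the wild type level. Mzb1, a chaperone of antibody assembly, had 1061, 692 and 546 CPM and was 1.94-fold in the Lpar6 knockout, and Jchain was 4.57-fold through the 1 cell described above. Sprr2a3, at 222, 218 and 83.1 CPM, could come mostly from free urothelial RNA.

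The genes furthest lower in Lpar6 knockout B cells included several with no UMI at all. H2-Q4, a nonclassical MHC class I gene, had 0, 80.1 and 96.1 CPM in Lpar6 knockout, Cab39l knockout and wild type B cells. By the exact interval of its ratio it was at least 2.62-fold lower in the Lpar6 knockout. Nsrp1, Tmem55b, Capn1 and Gtf2i were likewise at 0 there and at least 2.48-, 2.30-, 2.21- and 2.21-fold lower. Tsc22d3, the glucocorticoid-induced leucine zipper, had 86.8, 425 and 378 CPM and was 4.35-fold lower (2.25 to 9.64). These genes were at or near the wild type level in Cab39l knockout B cells, apart from Nsrp1 (53.4 against 91.2 CPM) and Tmem55b (40.0 against 84.7 CPM). Dennd4a had 2 UMIs in the Lpar6 knockout and a ratio of 0.127 (0.0152 to 0.473). Atrn (0 against 176 CPM, at least 4.86-fold) and Krt15 (48.2 against 301 CPM) were also lower and, by the estimate above, could come mostly from free urothelial RNA. In the wild type, however, 30 of 108 Atrn UMIs and 57 of 185 Krt15 UMIs lay in 1 cell each.

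Lars2, the mitochondrial leucyl-tRNA synthetase (GRCm38 chr9:123366927-123462666, plus strand), was lower in both knockouts. It had 86.8 CPM in Lpar6 knockout, 71.2 in Cab39l knockout and 440 in wild type B cells, 5.07-fold (2.63 to 11.2) and 6.18-fold (4.27 to 9.21) lower. The same order was seen in urothelial cells, with 48.8, 41.9 and 230 CPM, and wild type T cells had 439 CPM. A difference of the same sign was therefore present in the main cell type of the libraries.

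In Cab39l knockout B cells 2 genes of the B lineage were among those furthest lower. Cd72, an inhibitory coreceptor that binds CD100 (GRCm38 chr4:43446462-43454628, minus strand), had 106 CPM in Lpar6 knockout, 26.7 in Cab39l knockout and 165 in wild type B cells, 6.16-fold (3.38 to 12.3) lower in the Cab39l knockout. Vpreb3, a surrogate light chain relative made in B cell precursors and kept in some mature cells (chr10:75943057-75949657, plus strand), had 96.5, 44.5 and 223 CPM, 2.31-fold (1.22 to 4.93) lower in the Lpar6 knockout and 5.01-fold (3.12 to 8.47) lower in the Cab39l knockout. At 1000 UMIs per cell a Vpreb3 UMI was found in 7.14, 5.66 and 23.3% of B cells and in no T cell, and a Cd72 UMI in 17.9, 1.89 and 16.9%; before thinning 5, 13 and 61 B cells had a Vpreb3 UMI and 6, 11 and 56 a Cd72 UMI. Neither gene had more than 0.1 CPM to gain from urothelial RNA. Vpreb3 was thus lower in both knockouts, while the Cd72 interval for the Lpar6 knockout (0.312 to 1.2 times wild type) included 1.

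Dmxl1, Clip1 and Mgea5 (the enzyme that removes O-GlcNAc) were 4.50-, 5.73- and 5.12-fold lower in Cab39l knockout B cells, at 31.2, 13.4 and 15.6 CPM. Apoe, a lipid carrier, had 357 CPM in Lpar6 knockout, 202 in Cab39l knockout and 568 in wild type B cells and was 2.81-fold lower in the Cab39l knockout. An Apoe UMI was seen in 31 of 107 Cab39l knockout and 62 of 177 wild type B cells, so the shares of cells were closer than the levels. In the wild type 44 of its 349 UMIs lay in 1 cell. Jchain had 3 UMIs and a ratio of 0.0187 (0.00383 to 0.0554) to a wild type level set by 1 cell. Lima1 and Myof, at 20.02 and 57.8 CPM against 122 and 212 in the wild type, could come mostly from free urothelial RNA by the same estimate. In the wild type 16 of 75 Lima1 UMIs and 24 of 130 Myof UMIs lay in 1 cell each.

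The higher side in Cab39l knockout B cells was led by secretory genes of 1 cell. A cell of 8663 UMIs held 1267 of 1289 UMIs of Sbp (spermine binding protein) and 800 of 865 of Spink1, a secreted trypsin inhibitor. It also held all 90 UMIs of Scgb2b20 and 88 of 89 of Scgb1b20. The same cell had 17 Iglc1, 2 Iglc2, 2 Igkc and 5 Ighm UMIs and 12 rule UMIs. Without such cells Sbp was at a log2 of 0.81 and Spink1 at 1.88 over wild type. Among the others, Ost4, of the complex that attaches sugars to proteins, had 174 CPM in Lpar6 knockout, 225 in Cab39l knockout and 86.3 in wild type B cells (2.60-fold in the Cab39l knockout), and Akr1b7, an aldo-keto reductase, had 0, 174 and 44.0 CPM (3.95-fold). In the Cab39l knockout 18 of the 78 Akr1b7 UMIs lay in 1 cell. T cells had 0, 154 and 39.9 CPM of Akr1b7 (0, 4 and 15 UMIs), so its difference was not particular to B cells.

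**Figure D4:**
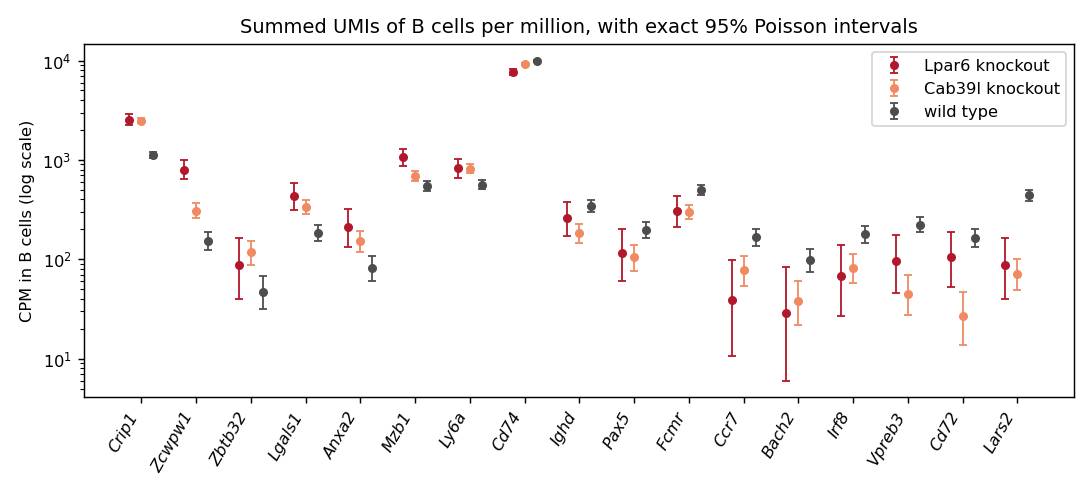
Levels (CPM, log axis) of 17 genes in B cells of the Lpar6 knockout, Cab39l knockout and wild type libraries, with exact 95% Poisson intervals for counting error. Crip1 lies at 2546, 2474 and 1124 CPM and Vpreb3 at 96.5, 44.5 and 223 CPM, while Cd74 differs little at 7639, 9252 and 9870 CPM.

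Gene lists gave the wider picture, with members counted when at least 20 UMIs were seen in a knockout and the wild type together and called at 1.5-fold. Over all genes at that depth, 9.89% were higher and 36.6% lower in the Lpar6 knockout, and 5.98% were higher and 26.2% lower in the Cab39l knockout, with medians of -0.27 and -0.21. Of 169 list members 16 were higher and 63 lower in the Lpar6 knockout (median -0.34), and of 175 members 8 were higher and 45 lower in the Cab39l knockout (median -0.26). As a whole the lists were close to this background. Counts in single lists are to be read against it.

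The antigen receptor and MHC class II genes, the core of the B cell program, stayed within 1.5-fold for most members. Of 8 antigen receptor genes 1 was higher in the Lpar6 knockout (Igkc) and 1 lower (Iglc1, 801 against 1278 CPM), and 1 was lower in the Cab39l knockout (Ighd, 185 against 347 CPM). Cd79a and Cd79b are among these 8, and their levels follow in part from the choice of cells. H2-Aa had 2160, 2176 and 2516 CPM, H2-Ab1 2006, 1922 and 2487 CPM, and H2-Eb1 2363, 2151 and 2321 CPM in Lpar6 knockout, Cab39l knockout and wild type B cells. Of 10 class II genes 1 was higher in the Lpar6 knockout (H2-Oa, which modulates peptide loading, 231.5 against 143 CPM) and 2 lower, and 1 was lower in the Cab39l knockout. Among 9 class I genes Tap2, a peptide transporter, was higher in the Lpar6 knockout with 135 against 35.8 CPM.

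The shares of coreceptors and signalling genes that were lower lay above those of all genes in the Lpar6 knockout and under them in the Cab39l knockout. Of 10 coreceptors and inhibitory receptors 2 were higher and 5 lower (50%, against 36.6% of all genes) in the Lpar6 knockout (median -0.60), and in the Cab39l knockout only Cd72 was lower (10%, against 26.2%). Cd22, a lectin that restrains the receptor, had 57.9, 107 and 129 CPM, and the Fc receptor Fcgr2b 28.9, 73.4 and 76.5 CPM in Lpar6 knockout, Cab39l knockout and wild type B cells. Of 16 signalling genes none was higher in either knockout, and Lpar6 knockout B cells had 7 lower (43.8%, against 36.6%), Cab39l knockout B cells 3 (18.8%, against 26.2%), with medians of -0.48 and -0.33. The kinase Lyn had 67.5, 131 and 208 CPM, while Syk had 289, 249 and 291.5 CPM.

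Transcription factors of the lineage were near the shares of all genes. Of 20 measured, none was higher, 9 were lower in the Lpar6 knockout (45%, against 36.6%), and 5 were lower in the Cab39l knockout (25%, against 26.2%), with medians of -0.47 and -0.37. Bach2, which holds back plasma cell fate, had 28.9, 37.8 and 97.7 CPM, Irf8 67.5, 82.3 and 179 CPM, and Pax5 116, 105 and 199 CPM in Lpar6 knockout, Cab39l knockout and wild type B cells. These 3 were lower in both knockouts. Klf2 (617, 1244 and 1230 CPM) and Foxp1 (299, 523 and 580 CPM) were lower in the Lpar6 knockout alone by the 1.5-fold rule; that the knockouts differ was not tested. Ebf1, with 579, 676 and 769 CPM, was within 1.5-fold in both.

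Homing and follicular genes had more members on the lower side in the Lpar6 knockout than all genes did. Of 13 homing genes 2 were higher and 9 lower (69.2%, against 36.6%) in the Lpar6 knockout, and 4 were lower in the Cab39l knockout (30.8%, against 26.2%), with medians of -0.81 and -0.28. The lymph node homing receptor Ccr7 had 38.6, 77.9 and 168 CPM and was lower in both. Of 6 follicular genes Lpar6 knockout B cells had 4 lower and Cab39l knockout B cells 3 (medians -0.84 and -0.50). Fcmr had 309, 300 and 497 CPM, and the IgE receptor Fcer2a (CD23) was level at 86.8, 95.7 and 101 CPM. Of the integrins, Itgb7 was higher in the Lpar6 knockout with 183, 149 and 103 CPM.

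The B-1 list had a median above 0 in both knockouts. B-1 cells are innate-like B cells of body cavities that make natural IgM. Of 5 measured members 3 were higher in the Lpar6 knockout (60%, against 9.89% of all genes), with a median of 0.86. Of 6 in the Cab39l knockout 3 were higher (50%, against 5.98%) and 1 lower (16.7%, against 26.2%), with a median of 0.52. Anxa2, higher in both, is not particular to B cells. It had 218 CPM in wild type T cells and 181 in wild type urothelial cells, against 81.4 in wild type B cells. Bhlhe41, a factor that B-1 cells need in mice, had 106, 48.9 and 44.0 CPM, and Zbtb32 had 86.8, 118 and 47.2 CPM in Lpar6 knockout, Cab39l knockout and wild type B cells. Cd5, the marker of B-1a cells, had 0, 3 and 0 UMIs, and Itgam, also of that list, 0, 10 and 7 UMIs. The medians rest on few of the 10 members of the list, without Cd5, and 2 members in each knockout were within 1.5-fold. Of 3 marginal zone genes 1, Mzb1, was higher in the Lpar6 knockout, and of 4 none was in the Cab39l knockout; of 4 memory genes 2 were higher in the Cab39l knockout, Zbtb32 and Cd80 (24.5 against 14.7 CPM).

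Within each library Zcwpw1 and Zbtb32 were seen at a higher share of the Crip1-rich B cells than of the others. B cells with at least 5 Crip1 UMIs numbered 9, 53 and 35 in the Lpar6 knockout, Cab39l knockout and wild type libraries. Zcwpw1 was seen in 66.7, 32.1 and 25.7% of them, against 10.5, 7.41 and 5.63% of the other B cells. Zbtb32 was seen in 55.6, 45.3 and 31.4% against 5.26, 11.1 and 5.63%. These cells were deeper, with medians of 5870, 4873 and 4829 UMIs against 2158, 2661 and 2382, a depth that by itself raises the share of cells with a UMI. Ighd went the other way in spite of depth, with 22.2, 30.2 and 40.0% against 63.2, 59.3 and 61.3%. So did Vpreb3, with 11.1, 7.55 and 14.3% against 21.1, 16.7 and 39.4%. B cells of all 3 libraries, wild type included, thus held a Crip1-rich, Ighd-poor set and an Ighd-rich set; these were defined by values of the same cells and are a description.

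Many immediate early and activation genes were lower in both knockouts. Of 19 immediate early and activation genes 1 was higher and 11 lower (57.9%, against 36.6% of all genes) in the Lpar6 knockout (median -0.67), and of 20 in the Cab39l knockout 1 was higher and 10 lower (50%, against 26.2%; median -0.56). The phosphatase gene Dusp2 had 57.9, 80.1 and 233 CPM, Junb 299, 621 and 718 CPM, and Fos 164, 231 and 370 CPM in Lpar6 knockout, Cab39l knockout and wild type B cells. Summed over the list, B cells had 3356, 4238 and 5623 CPM and urothelial cells 1337, 1344 and 2145 CPM in the same order of libraries. A difference of the same sign was therefore also present in urothelial cells, the main cell type of the libraries. Of 8 heat shock genes 3 (37.5%) were lower in each knockout, a share near that of all genes in the Lpar6 knockout (medians -0.38 and -0.43); among them were Hsp90aa1 with 203, 320 and 523 CPM and the cochaperone Dnaja1 with 106, 156 and 353 CPM. Summed heat shock levels were 3742, 3729 and 5032 CPM in B cells and 3580, 3647 and 4456 CPM in urothelial cells. Of 4 cytokine and receptor genes 3 and 2 were lower in B cells, where Il21r had 9.65, 15.6 and 44.0 CPM.

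Interferon response genes were mostly within 1.5-fold of wild type. Of 7 interferon response genes 1 was higher and 1 lower in each knockout (medians 0.09 and -0.04); Ly6a had 820, 819 and 565 CPM, and Ifit1 had 0 UMIs in every library. Of 8 germinal centre genes 4, 4 and 5 had a UMI in Lpar6 knockout, Cab39l knockout and wild type B cells, with a summed level of 38.6, 33.4 and 40.7 CPM; S1pr2, Gcsam and Rgs13 were at 0, and none of the list had enough UMIs to be counted. The precursor genes Rag1, Rag2, Dntt, Igll1 and Vpreb1 had 0 UMIs, so Vpreb3 was not accompanied by them. Of 3 measured early and transitional genes 1, Cd24a, was higher and 2, Vpreb3 and Ms4a4c, lower in the Lpar6 knockout (median -0.79), and Vpreb3 alone was lower in the Cab39l knockout (median -0.54). Cd24a, high in immature B cells, had 376, 147 and 195 CPM in Lpar6 knockout, Cab39l knockout and wild type B cells, and 18 of its 39 Lpar6 knockout UMIs lay in 1 cell. Cycling cells, with UMIs of at least 2 cycling genes at 1000 UMIs per cell, were 3.57, 0.943 and 0% of B cells in the Lpar6 knockout, Cab39l knockout and wild type libraries (3.57, 4.67 and 1.13% before thinning). Survival genes were lower for 4 of 9 in the Lpar6 knockout (median -0.53, or -0.38 with Cd40 and Birc3, both at 0 UMIs there, set at their limits) and 2 of 10 in the Cab39l knockout, where 1, Cd40, was higher (51.2 against 32.6 CPM).

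**Figure D5:**
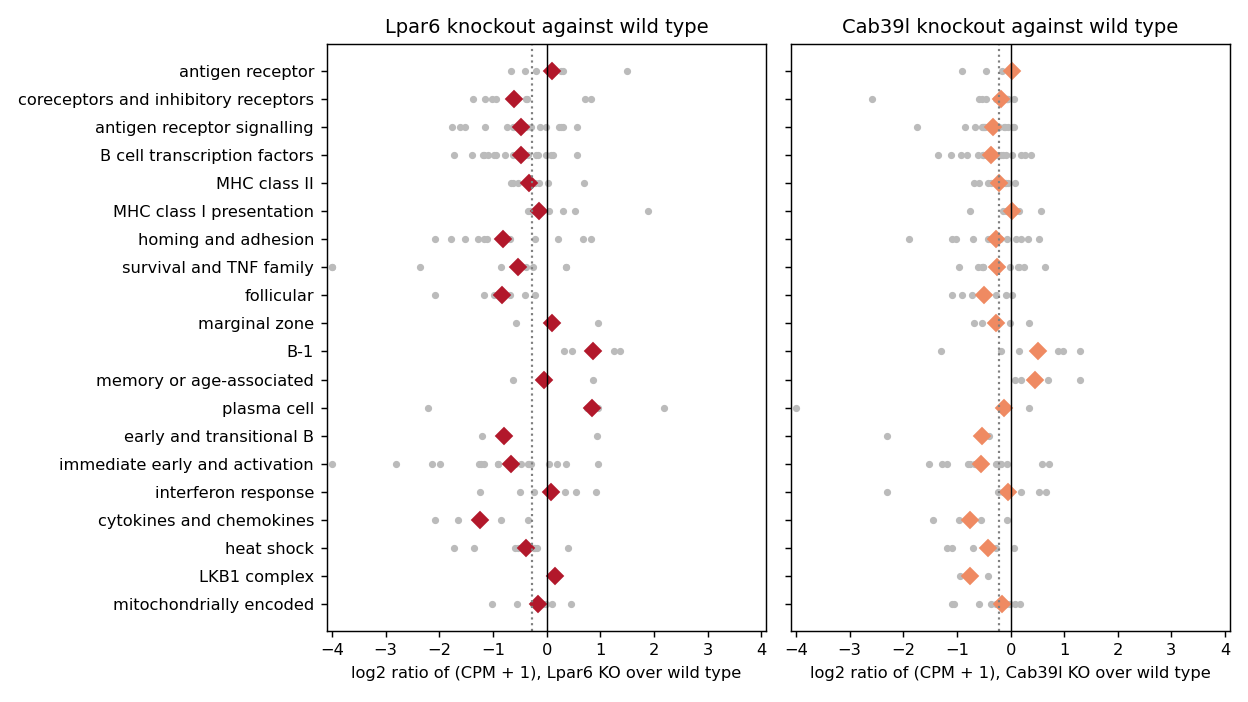
Log2 ratio of CPM + 1 of each list member (grey points) and the list's median (diamonds), Lpar6 knockout over wild type on the left and Cab39l knockout over wild type on the right. The dotted lines are the medians of all genes, -0.27 and -0.21, points beyond -4 are drawn at that edge, and the B-1 list lies to the right of the line in both panels with medians of 0.86 and 0.52.

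Transcripts of other cells differed between the libraries in several lists. The summed level of 6 erythroid markers was 77.2, 33.4 and 5897 CPM in Lpar6 knockout, Cab39l knockout and wild type B cells, and 619.5 CPM in wild type T cells. Of the 2158 Hbb-bs UMIs in wild type B cells 1041 lay in 1 cell, while 109 cells had at least 1. The summed level of 6 secretory gland markers was 0, 4872 and 106 CPM, nearly all in the 1 Cab39l knockout cell described above. Of 12 macrophage and dendritic cell markers 2, 10 and 9 had a UMI, with a summed level of 28.9, 95.7 and 109 CPM and Csf1r at 0; Lyz2, a lysozyme of myeloid cells, had 0, 14 and 21 UMIs. Of 6 neutrophil markers 0, 0 and 4 had a UMI, with a summed level of 0, 0 and 39.1 CPM and Csf3r at 0. Urothelial markers stood at 4099, 4405 and 4296 CPM over 14 genes and so differed little. The part of these transcripts in the lower genes was not tested.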

How the data were processed

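Single-cell RNA of mouse bladder was measured in 3 libraries, 1 per genotype. The deposited matrices hold raw UMI counts per gene and barcode; Cell Ranger 3.0.2 and the mm10 build are named in the submitters' processing notes, while the annotation release was not given in these sources. Of 31053 gene IDs 30934 (99.6%) were found in GENCODE vM21, used for positions and sequences. The B cell rule, gene lists and named genes were chosen with earlier results of these data known.

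Cells with at least 500 genes and at most 20% mitochondrially encoded UMIs were kept. Urothelial cells had at least 0.5% uroplakin UMIs and no UMI of Ptprc or of the B and T cell rule genes. Counts were summed over the B cells of a library and scaled to CPM, and log2 ratios took a pseudocount of 1 CPM. Differences of at least 2-fold with 50 UMIs over both libraries were called, and list members at 1.5-fold with 20 UMIs. Ratio intervals are exact conditional 95% intervals, and shares have Clopper-Pearson intervals; they cover counting error only. Named genes were the 8 furthest apart in each direction by the interval bound nearest to 1, without ribosomal, mitochondrial, haemoglobin, Xist, Tsix, Y-linked, predicted and immunoglobulin genes, the genes mostly of free urothelial RNA set apart; immunoglobulin genes; the 15 highest in B over T cells; and list members with most UMIs or furthest apart. Some genes that this rule names are not reported here. Positions of sequences and gene ends came from the same annotation. Cells were thinned to 1000 UMIs for shares, which left out 0, 1 and 5 B cells in the Lpar6 knockout, Cab39l knockout and wild type libraries.

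No doublets were removed. Scrublet, run in scanpy 1.11.5, called 0, 0 and 22 cells in those libraries, under the rate of a working caller in 2 of them, so removal of the top 6% of scores was an alternative. Other alternatives were median-of-ratios and TMM scaling, other minima, limits and pseudocounts, subtraction of free urothelial RNA, and means per cell. Those without the Jchain-rich and Sbp-rich cells, without cells above 10000 UMIs, and without genes mostly of free RNA were added after the data were seen. The procedure was tested on simulated data. Python 3.11.15, numpy 2.4.6, scipy 1.17.1, pandas 2.3.3 and matplotlib 3.10.9 were used.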

Additional observations from a re-analysis of the deposited data

Results flagged for a closer look

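Some barcodes carried B cell transcripts outside the cells described. In the Lpar6 knockout library 5, in the Cab39l knockout library 7 and in the wild type library 7 barcodes met the rule on Cd79a, Cd79b, Ms4a1 and the Cd3 genes but had too few genes or too many mitochondrially encoded UMIs. Of these, 1, 0 and 2 had under 500 genes, and 4, 7 and 5 had over 20% mitochondrially encoded UMIs. With 28, 107 and 177 B cells inside the filters, they do not alter the order of the libraries.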

How the results depend on the processing

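The order of the B cell shares, lowest in the Lpar6 knockout and highest in the wild type library, held under every filter tried, though the values moved: with at least 1000 genes the share was 0.253% in the Lpar6 knockout (0.480% as reported) and 3.03% in the wild type, where it was also 3.15% with at least 200 genes and 5.33% with at most 10% mitochondrially encoded UMIs. The uroplakin percent was 25, 18.6 and 33.6% in Lpar6 knockout, Cab39l knockout and wild type B cells with Krt5 and Krt15 in its place. It was 11.2% (Lpar6 knockout) and 15.5% (Cab39l knockout) with at least 1000 genes, 15.1% (Cab39l knockout) and 13.8% (wild type) without the top 6% of doublet scores, and 14.4% (wild type) without cells above 10000 UMIs. Asked for 90% of 1 light chain type, 18.5, 24.8 and 22.2% of cells were kappa and 81.5, 70.5 and 71.3% mixed, with 0% lambda in the Lpar6 knockout.

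Counts of genes moved under several settings. For the Lpar6 knockout 60 genes were at least 2-fold higher under median-of-ratios factors and 50 with means per cell, and 161 were lower with at most 10% mitochondrially encoded UMIs. Higher and lower genes were 127 and 940 with a minimum of 20 UMIs, and 1175 and 5484 with none. For the Cab39l knockout they were 57 and 551 with 20 UMIs, 1418 and 3004 with none, 35 and 79 under TMM (with 27 list members lower), 30 and 89 after subtraction of free urothelial RNA, 10 and 83 without the top 6% of doublet scores, and 11 and 71 with at most 10% mitochondrially encoded UMIs. With a pseudocount of 10 CPM 91 were lower and 5 list members higher. Jchain in the Cab39l knockout turned to a log2 of 3.03 without the top 6% of doublet scores and 2.96 without the Jchain-rich cells, since the cell that set the wild type level was then left out and the wild type was at 0 UMIs, so these values are no bound. The median of the cycling list, which is 1 gene, was -0.02 in the Cab39l knockout without cells above 10000 UMIs. Of the other values tried, 324 of 357 list medians and 384 of 418 values of named genes kept within 0.2 or within their own interval. Shares of cells with a UMI did so less, with 19 of 36 values at 1500 UMIs or without thinning inside the interval at 1000 UMIs. At 1500 UMIs Crip1 was seen in 80.8, 77.7 and 54.8% and Vpreb3 in 7.69, 5.83 and 23.6% of Lpar6 knockout, Cab39l knockout and wild type B cells. Where not said, the cause of a change was not tested. No paired analysis was possible because there was 1 library per genotype. Lpar6 knockout values rest on 28 cells, so genes under 28.9 CPM (3 UMIs) there could not be told from 0.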
